A study of Mus musculus with 104 samples.

Results

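The parent siRNA D1 and its analog D3 were compared directly at 10 nM in primary mouse hepatocytes (PMH), liver cells placed in culture from the animal, 24 h after transfection with a cationic lipid. Both are GalNAc-siRNAs that share 1 guide sequence against Hao1, the gene of the peroxisomal glycolate oxidase, and they differ at guide position 5, where D1 carries C and D3 carries isocytosine (isoC) on a glycol nucleic acid (GNA) backbone. The members are the 8 libraries labelled with either siRNA at 10 nM (4 of D1 and 4 of D3), beside 96 other libraries in the series. Among these, 8 mock libraries, transfected without siRNA, show on which side of cells without siRNA a gene lies. The same pair at 50 nM (4 and 4 other libraries) shows whether a difference recurs. The labels give no animal, strain, age or culture for a library, so p-values measure the spread between libraries, which may be technical. Transfection bypasses uptake through the asialoglycoprotein receptor, which limits these cells as a model of GalNAc delivery.

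An siRNA guide is loaded into an Argonaute protein, and its full match directs cleavage of the target mRNA. Positions 2 to 8 form the seed. A match to the seed alone, mostly in a 3′-UTR, can lead to modest repression of other mRNAs, as with a microRNA, and a change to 1 seed nucleotide is a known way to weaken such pairing. The guide, its modified position and the site in Hao1 are shown because the comparison turns on them. Capitals mark guide positions 2 to 8 in the first line, position 5 in the second, and the bases opposite positions 2 to 8 in the third.
guide of D1 and D3: uUGUCGAUgacuuucacauucug
guide, position 5 marked: uuguCgaugacuuucacauucug
Hao1 site: cagaatgtgaaagtcATCGACAa
The Hao1 site lies at chr2:134340220-134340242 on the minus strand of GRCm39, in coding sequence of exon 8.

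The 8 siRNA libraries held between 4462177 and 5464931 counts on genes, with a median of 5096331 for D1 and 4930859 for D3, and the mock libraries held 3409963 to 5308584. D1 replicate 4 and D3 replicate 3 stood apart from the other libraries of their groups on the first 2 principal components. The ERCC spike-ins, RNA added in known amounts, took 0.941% of the counts in D1 replicate 4 against 0.630% to 0.762% in the other D1 libraries, and 1.203% in D3 replicate 3 against 0.632% to 0.900% in the other D3 libraries. D1 replicate 4 also had the lowest mitochondrial share of the D1 libraries, 2.27%, and D3 replicate 3 the fewest genes detected of the D3 libraries, 15567. Main results are therefore also given without these 2 libraries, a choice made once their values were known. Across genes, which are not independent, the deviations of these 2 libraries from their group means correlated at r = 0.414, above every other pair of a D1 and a D3 library at 10 nM. In the plot of principal components, the mock libraries lay apart from both siRNAs on the first component and D1 lay apart from D3 on the second.

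**Figure D1:**
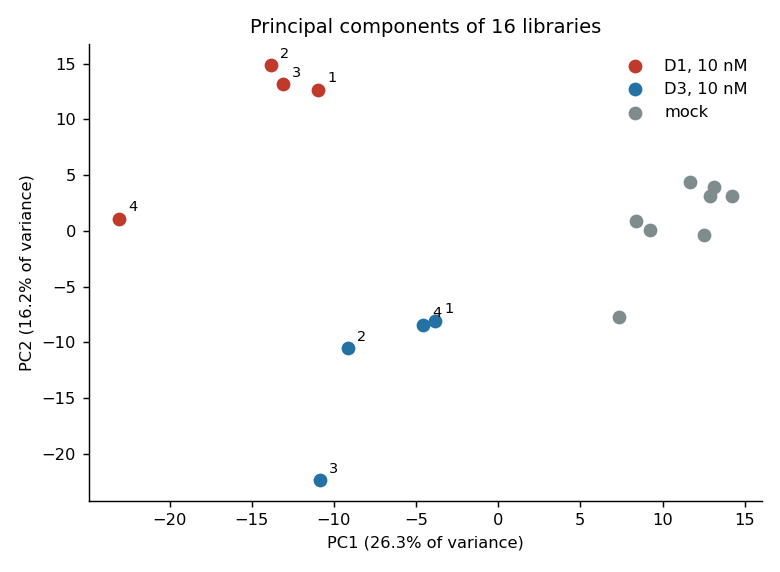
Principal components of log2 CPM over 9865 genes in the 16 libraries, with PC1 (26.3% of the variance) on the x axis and PC2 (16.2%) on the y axis. Each point is 1 library, and numbers mark the replicates of D1 and D3. The 8 mock libraries have a PC1 of 7.38 or more and the 8 siRNA libraries of −3.85 or less, and all 4 D1 libraries a PC2 above all 4 D3 libraries.

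Hao1 followed the labels of the libraries. In CPM (a gene's counts relative to those of its library, on a scale common to all libraries and adjusted for composition), Hao1 lay between 27.8 and 38.8 in the mock libraries (median 34.1). It was at 2.195, 2.36, 2.33 and 1.69 CPM in D1 replicates 1 to 4. In D3 it was at 1.10, 0.436, 0.593 and 1.12 CPM. Every siRNA library lay far below every mock library, and all 4 D3 libraries lay below all 4 D1 libraries. The mean CPM left was 6.36% of mock with D1 and 2.41% with D3. Hao1 was thus higher with D1 than with D3 by a log2 fold change of 1.36 (SE 0.361, 95% interval 0.631 to 2.09, adjusted p = 0.00789), and the log2 fold changes against mock were −3.96 for D1 and −5.32 for D3. This and all adjusted p-values below come from edgeR's quasi-likelihood test with Benjamini-Hochberg adjustment over all genes tested in the fit concerned (11449 at 10 nM, 11078 at 50 nM and 11463 for the difference between doses). Without the 2 libraries it was 1.34 (adjusted p = 0.0298). The difference rests on 9 to 12 counts per D1 library and 2 to 6 per D3 library. Hao1 passed the filter on low counts through its level in mock. It has no value with D1 and D3 alone in the fit or with a replicate block. The difference was not called from the second sequencing run alone (log2 fold change 1.025) or by DESeq2 with its shrinkage of fold changes (0.369). At 50 nM, where Hao1 was too low to be tested, the libraries held 2 to 19 counts with D1 and 2 to 5 with D3, and the groups overlapped.

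Across all genes, D1 and D3 differed at 1574 of 11449 genes (13.7% of those tested), of which 826 were lower with D1 (7.21%) and 748 higher (6.53%). The 4 and 4 libraries did not overlap at 1802 genes (15.7% of those tested), 1264 of which were also called. The differences were mostly small: the median size among called genes was a log2 fold change of 0.425, 612 exceeded 0.5 and 116 exceeded 1. For 6367 genes that were not called, the 95% interval of the difference lay within ±0.5. Without D1 replicate 4 and D3 replicate 3, 1305 genes were called (628 lower with D1), of which 1111 were called in the same direction with all libraries.

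Against the same 8 mock libraries, 2206 genes were called for D1 (19.3% of those tested, with 10.2% lower and 9.08% higher) and 1843 for D3 (16.1%, with 8.14% lower and 7.96% higher). Because mock is shared, the overlap of these lists is a description. Of the genes called, 798 were in both lists. They moved the same way in 728 genes, which is 33.0% of the D1 list and 39.5% of the D3 list, with 372 lower than mock and 356 higher. The siRNAs lay on opposite sides of mock at 70 genes. All 70 were called in the direct comparison too, which opposite calls in the same fit make nearly certain beforehand. Among the 728 genes that moved the same way, 139 still differed in size between the siRNAs. The other 589 were not called between D1 and D3, and for 475 of these the interval of the difference lay within ±0.5. Without the 2 libraries, 1939 genes were called for D1 and 1748 for D3, 626 of them in both with the same sign.

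A gene called for 1 siRNA only is not thereby shown to differ between them, and the direct comparison separated these cases. Of the 1408 genes called for D1 and not for D3, 597 (42.4%) also differed directly, 364 of them lower than mock with D1 and 233 higher. Of the 1045 genes called for D3 and not for D1, 480 (45.9%) differed directly, 296 lower than mock with D3 and 184 higher. A further 288 genes differed directly though neither siRNA was called against mock, which is 3.51% of the 8198 such genes. Over all genes tested, 13.7% differed directly. These shares use the same D1 and D3 libraries as the lists and are a description. Without the 2 libraries the genes called for 1 siRNA only and directly numbered 455 for D1 and 461 for D3.

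The genes with the largest decrease in D1 against D3 were Hamp, Golm2, Clstn1, Actg1, Epha4, Cdh17, Ccnb2 and Maea. They were ranked among genes with a mean of at least 5 CPM over the 16 libraries and no overlap of D1 and D3. Hamp reached this mean only through its D3 libraries, and all D1 libraries of Golm2, Clstn1 and Ccnb2 lay below 5 CPM. The genes listed reached their difference in several ways. Actg1, cytoplasmic gamma-actin, was at 57.5, 47.4, 47.4 and 53.6 CPM in D1 replicates 1 to 4. In D3 it was at 145.7, 150.3, 169.1 and 148.4 CPM, and mock spanned 179.0 to 209.7. Actg1 thus fell with both siRNAs, but much further with D1 (log2 fold change against mock −1.92, against −0.35 for D3, and −1.58 directly, SE 0.077, adjusted p = 1.92e-17). Actin genes resemble each other closely, and the counting of unique reads can lose part of them. Maea, a subunit of the CTLH ubiquitin ligase, was at 57.3, 46.4, 47.0 and 43.9 CPM with D1 and at 119.9, 134.9, 131.9 and 142.1 with D3, where mock spanned 131.7 to 156.8. Golm2, a Golgi membrane protein, was at 4.19, 2.95, 4.27 and 2.64 CPM with D1 and at 12.1, 13.7, 14.8 and 15.2 with D3, against 12.5 to 17.0 in mock. For Maea and Golm2 the D3 libraries overlapped mock and the D1 libraries lay below every one of them (log2 fold changes directly −1.44, SE 0.083, and −1.98, SE 0.193).

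Hamp, the iron hormone hepcidin, showed the reverse arrangement. It was at 2.195, 2.56, 4.27 and 5.27 CPM with D1, within the mock range of 1.16 to 7.94. In D3 it was at 19.8, 10.5, 10.9 and 18.3 CPM, above all mock libraries. The log2 fold change was −2.04 directly (SE 0.424, adjusted p = 0.00354) and 1.95 for D3 against mock. Clstn1, a transmembrane protein of the calsyntenin family, and Epha4, an ephrin receptor, lay on opposite sides of mock: Clstn1 was lower with D1 (log2 fold change against mock −0.996) and higher with D3 (0.79), and Epha4 likewise (−0.67 and 0.89). Cdh17, a cadherin of liver and intestine, fell with both, from a mock median of 232.0 CPM to 32.8 to 41.3 with D1 and 80.8 to 116.5 with D3 (−2.61 and −1.14). Ccnb2, the mitotic cyclin B2, was also lower than mock with both (−2.68 and −1.24), at 3.76 CPM or less in every D1 library. Its direct call (−1.44) was lost from the second run alone (−1.12), without D1 replicate 1 (−1.34) and without D3 replicate 3 (−1.22).

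The genes with the largest increase in D1 against D3 were Gvin4, Aadac, Crp, Msmo1, Hao1, Tat, Mamld1 and Prune2, where Hao1 reached a mean of 5 CPM only through the mock libraries. Most of these differences lay on the D3 side. Msmo1, a methylsterol oxidase of cholesterol synthesis, was at 405.1, 467.3, 443.1 and 459.2 CPM with D1, close to the mock range of 421.3 to 522.8. In D3 it was at 144.1, 168.4, 187.3 and 141.3 CPM, far below both. It had a log2 fold change of −1.61 with D3 and −0.14 with D1 (adjusted p = 0.141 for D1), and of 1.47 directly (SE 0.080, adjusted p = 3.35e-15). Crp, C-reactive protein, was at 5.79, 7.27, 6.22 and 6.59 CPM with D1, within the mock range of 4.21 to 8.85. The D3 libraries lay at 3.66, 1.09, 2.57 and 1.57 CPM, below every mock library. Gvin4, which is annotated as a transcribed pseudogene in a family of interferon-induced GTPases whose similar copies make its counts uncertain, and Mamld1, a mastermind-like protein, were lower than mock with D3 (−2.28 and −1.20) and not called with D1 (−0.52 and 0.06).

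Aadac, arylacetamide deacetylase of the hepatocyte endoplasmic reticulum, was called on both sides of mock. It was at 20.4, 21.2, 18.8 and 22.6 CPM with D1, against 11.1 to 18.2 in mock. With D3 it was at 6.04, 6.97, 9.495 and 6.04 CPM, so the 3 groups did not overlap, and the log2 fold changes were 0.50 for D1 and −1.04 for D3. Prune2 was higher than mock with D1 (0.81) and was not called with D3 (−0.41, adjusted p = 0.142). Tat, tyrosine aminotransferase, was called lower with D3 (−0.78) and not called with D1 (0.50, adjusted p = 0.061). Without the 2 libraries these 16 genes kept their direction, and Mamld1 alone was no longer called (adjusted p = 0.0509).

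**Figure D2:**
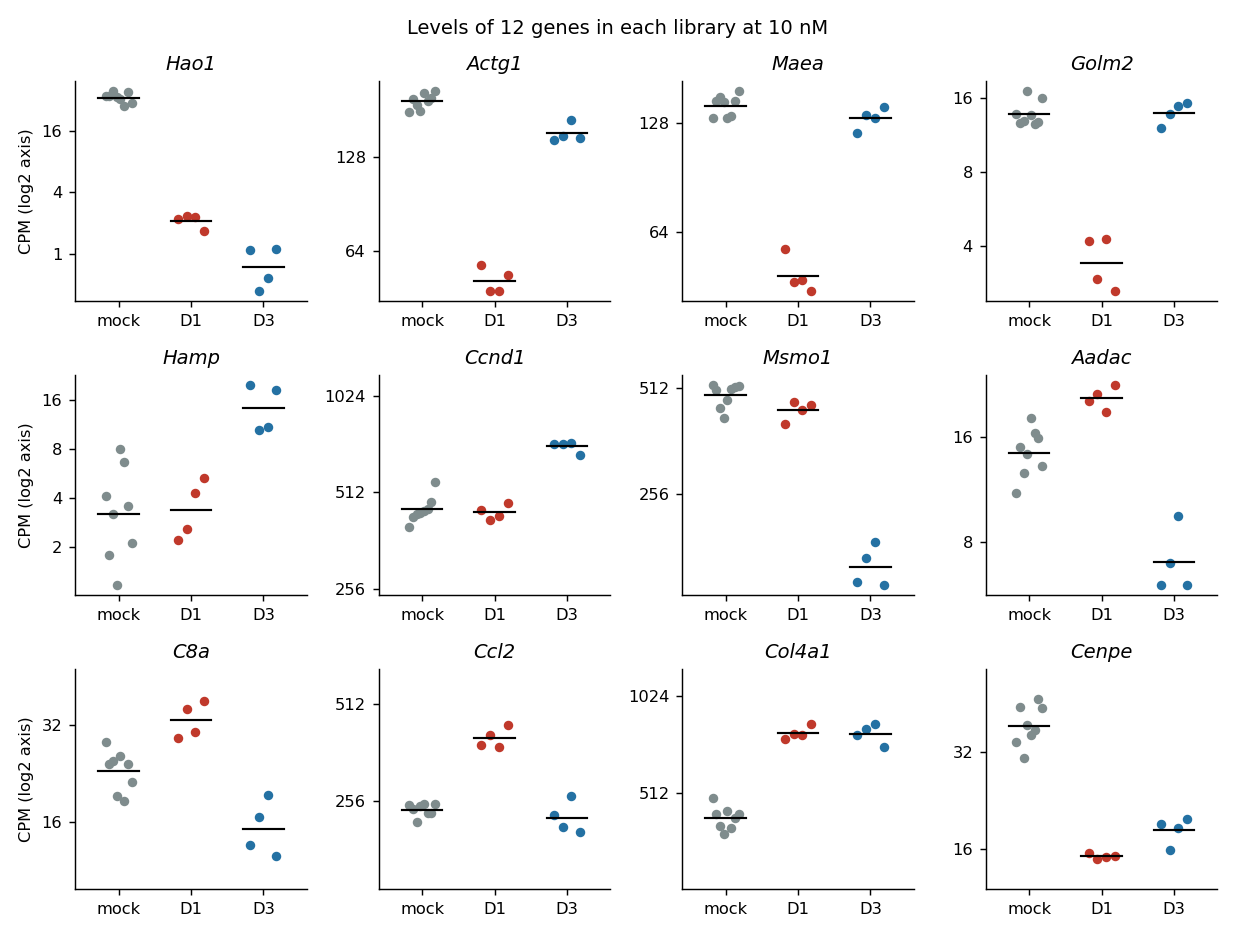
Levels of 12 genes, in CPM on a log2 axis, in the 8 mock, 4 D1 and 4 D3 libraries at 10 nM. Each point is 1 library and each bar the mean of log2 CPM. Hao1, Actg1 and Cenpe were lower than mock with both siRNAs and Col4a1 higher with both, Maea and Golm2 were lower with D1 than with mock or D3, Msmo1 was lower with D3 than with mock or D1, and Hamp and Ccnd1 were higher with D3 than with mock or D1.

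The shared genes named here were called with both siRNAs in the same direction and not called between D1 and D3 at 10 nM, which does not show that the siRNAs act alike on them. The 5 with the largest increase were Col4a5, Tgfb2, Efemp1, Fam43a and Col4a1. They come from 98 genes with a mean of at least 5 CPM whose 8 siRNA libraries lay above all mock libraries. Col4a1, a chain of the basement membrane collagen IV, rose from a mock range of 383.6 to 496.0 CPM to 753.8, 781.7, 775.5 and 841.1 with D1. The D3 libraries lay at 779.1, 810.4, 839.3 and 713.4 CPM, so the siRNA groups overlapped and both lay above mock. The difference between D1 and D3 was 0.0044 (95% interval −0.131 to 0.14), and the log2 fold changes against mock were 0.87 and 0.87. Col4a5, another collagen IV chain, rose by 1.25 and 1.52, and Tgfb2, a secreted growth factor of the TGF-beta family, by 1.11 and 1.29. Efemp1, the matrix protein fibulin-3, rose by 1.08 and 1.14, and Fam43a by 1.55 and 0.998. For Fam43a the 95% interval of the difference between D1 and D3 was 0.123 to 0.989 (adjusted p = 0.0801).

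The 5 with the largest decrease, of 96 that met the same conditions below mock and were likewise not called between D1 and D3, were Trdc, Cenpe, Esco2, Gm7893 and Selenbp1. Cenpe, a kinetochore motor protein, was at 15.6, 14.9, 15.2 and 15.2 CPM with D1 and at 19.2, 15.9, 18.6 and 19.9 with D3, against 30.8 to 47.1 in mock. Its D1 libraries lay below its D3 libraries, but the difference of −0.27 was not called (95% interval −0.553 to 0.0034, adjusted p = 0.2). Esco2, an acetyltransferase of cohesin, had log2 fold changes of −1.49 and −1.01 against mock and a difference of −0.47 (95% interval −0.851 to −0.0964, adjusted p = 0.0885). Selenbp1, a selenium-binding protein, had −0.94 and −0.99. Trdc, the constant segment of the T-cell receptor delta chain, fell from a mock median of 115.4 CPM to 42.9 to 56.3 with D1 and 34.2 to 45.4 with D3, while of other T-cell markers Cd3e was at 0.198 to 4.30 CPM and Cd3d, Cd8a and Cd4 had no count in any of the 16 libraries. Gm7893 is a processed pseudogene, whose reads cannot be separated with certainty from those of its parent gene.

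Among genes with a seed match in the longest annotated 3′-UTR, more were called lower with D1 than with D3 than were called higher, though most were not called. A mer8 match pairs with guide positions 2 to 8 and has an A opposite position 1, a mer7m8 match lacks that A, and a mer7A1 match pairs with positions 2 to 7 and has the A. Searched on the sense strand of the 3′-UTR, the letters ATCGACA (mer8 and mer7m8) were found in 1.56% of 20969 genes with a 3′-UTR and TCGACAA (mer7A1) in 1.24%, and both are parts of the mer8 letters ATCGACAA (0.396%). Sites of 5 genes whose values are given here are shown, with the match in capitals.
Rnf115, chr3:96697516-96697522, plus strand, mer8: gtggaattgtATCGACAAccaaatgcct
Camk2n1, chr4:138184236-138184242, plus strand, mer8: ctgcgatgaaATCGACAActtgtgtctc
Actg1, chr11:120236668-120236674, minus strand, mer7m8: gaacgtttgcATCGACAcctgtaaatgt
Maea, chr5:33529803-33529809, plus strand, mer7m8: cccagcctgcATCGACAtttgtttcttg
Clstn1, chr4:149733301-149733307, plus strand, mer7m8: agatgtgtatATCGACActaggtcagaa
The coordinates are those of the 7 bases opposite guide positions 2 to 8 in GRCm39.

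Of 42 mer8 genes tested (without Hao1), 13 were lower with D1 than with D3 and 1 was higher, with a median log2 fold change of −0.18 directly. For 157 mer7m8 genes, 40 were lower and 5 higher (median −0.14), and for 106 mer7A1 genes 20 were lower and 5 higher (median −0.09). Among 10487 genes without a match, 746 were lower and 727 higher, with a median of −0.0009. Of the mer8 genes 31.0% were thus lower with D1, against 7.21% of all genes. Against mock, 15 mer8 genes were lower (35.7%) and 2 higher (4.76%) with D1, and 7 lower (16.7%) and 6 higher (14.3%) with D3. Among mer7m8 genes, 48 were lower and 6 higher with D1, and 12 lower and 8 higher with D3. Among mer7A1 genes, 25 were lower and 7 higher with D1, and 5 lower (4.72%) and 16 higher (15.1%) with D3. Of all genes, 10.2% were lower and 9.08% higher with D1, and 8.14% and 7.96% with D3. The medians against mock were −0.15 for D1 and −0.02 for D3 in the mer8 genes, −0.11 and 0.01 in the mer7m8 genes, and −0.08 and −0.0068 in the mer7A1 genes. Without the 2 libraries, 9 mer8 genes were lower with D1 than with D3 (median −0.17), and with any annotated 3′-UTR in place of the longest the median was −0.10. Genes with a match had longer 3′-UTRs than those without (median 3141 bases for mer8 genes against 1888), and the part of this in the result was not tested.

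Among the mer8 genes with the largest decrease were Thsd4, Camk2n1, Chst15, Spata6 and Rnf115, of which the first 4 were at 10.6 CPM or less in every library. Rnf115, a ubiquitin ligase, was at 46.1, 38.5, 35.4 and 35.6 CPM with D1. With D3 it was at 75.1, 69.9, 84.1 and 71.1 CPM, against 101.1 to 127.6 in mock. Rnf115 thus fell with both siRNAs and further with D1 (log2 fold change against mock −1.54 and −0.585, directly −0.95, SE 0.092, adjusted p = 1.15e-09). Camk2n1, an inhibitor of calmodulin kinase II, was at 2.79, 2.56, 4.27 and 2.07 CPM with D1 and at 6.59, 5.45, 7.52 and 9.83 with D3, against 6.72 to 10.6 in mock. It was lower than mock with D1 (−1.48) and was not called with D3 (−0.16), whose libraries overlapped mock. Thsd4 and Chst15, a matrix protein and a sulfotransferase, were called higher than mock with D3 (1.11 and 1.69) and not called with D1 (−0.76 and 0.46). Chst15 and Spata6 were no longer called directly without the 2 libraries (adjusted p = 0.0956 and 0.0587).

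All 7-letter words carried by the 3′-UTR of at least 20 tested genes were then ranked by the mean log2 fold change of those genes, as a description. ATCGACA had the lowest mean of 16376 words in the direct comparison (199 genes, −0.27), as it did for D1 against mock (−0.28), while its rank was 652 for D3 against mock (−0.0093). At 50 nM, in other libraries, it again had the lowest mean of 16373 words (195 genes, −0.24).

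**Figure D3:**
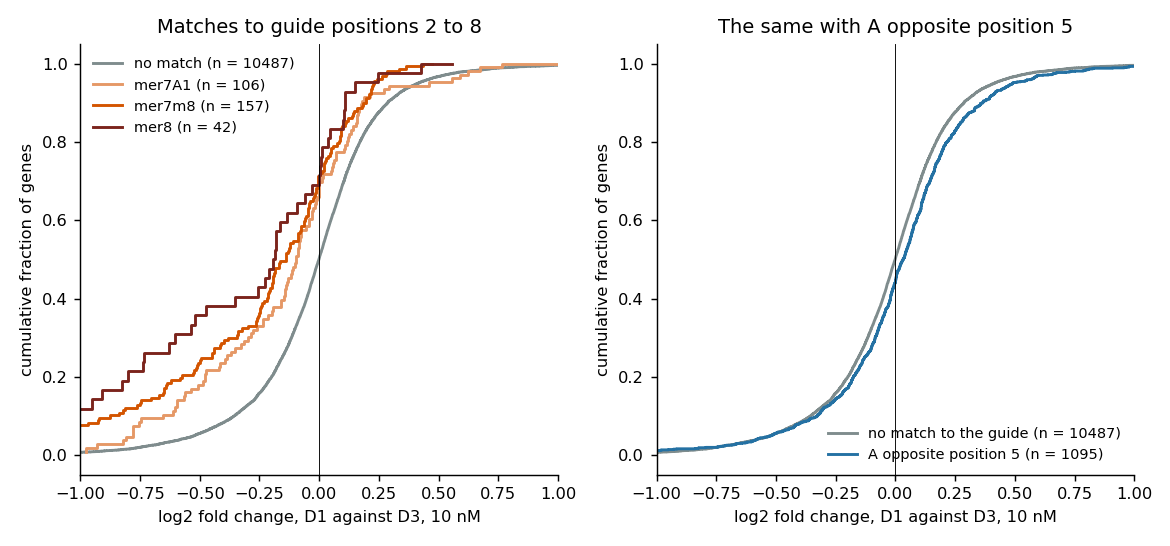
Cumulative distributions of the log2 fold change of D1 against D3 at 10 nM (x axis, shown from −1 to 1) over genes (y axis, fraction), without Hao1. Left, genes by their strongest match to guide positions 2 to 8, with medians of −0.18 (mer8), −0.14 (mer7m8) and −0.09 (mer7A1). Right, genes with an A in place of G opposite position 5, with a median of 0.03, beside genes with no match to the guide.

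The same letters with another base opposite guide position 5 were counted in the same way, and differences between these lists were not tested. The letters ATCAACA, which place an A there, were carried by 1095 tested genes, of which 121 were higher with D1 than with D3 (11.1%, against 6.53% of all genes) and 62 were lower (5.66%, against 7.21%). The median was 0.03 directly. It was 0.0032 in the 289 of these genes that also had the A opposite position 1 (12.5% higher, 5.54% lower). In the other 806 it was 0.04 (10.6% higher, 5.71% lower). The mer7A1 form of these letters (834 genes) had 75 higher (8.99%) and 64 lower (7.67%). With a C there (ATCCACA, 1562 genes) 118 were higher and 112 lower, and with a T (ATCTACA, 1256 genes) 96 were higher and 103 lower, with medians of −0.0017 and −0.0054. These 3 groups had similar median 3′-UTR lengths of 3203, 3172 and 3226 bases. Of the genes with ATCAACA, 133 were called lower than mock with D3 (12.1%, against 8.14% of all genes) and 74 higher (6.76%, against 7.96%). With D1, 118 of them were called lower (10.8%, against 10.2%) and 93 higher (8.49%, against 9.08%). Genes with ATCCACA had 128 lower and 118 higher than mock with D3, and 153 and 125 with D1. Those with ATCTACA had 110 lower and 100 higher with D3, and 149 and 123 with D1. In the ranking of words, ATCAACA stood at 32 from the lowest of 16376 for D3 against mock (mean −0.04) and at 6198 for D1 against mock. For the direct comparison it stood at 16339 of 16376, and at 50 nM at 16361 of 16373 (mean 0.06). The mean over all tested genes with a 3′-UTR was −0.02 in the direct comparison at 10 nM, against 0.02 for ATCAACA.

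Of the 290 genes with a 3′-UTR that were lower than mock with D3, not called with D1 and different directly, 60 carried ATCAACA (20.7%, against 10.1% of all genes tested with a 3′-UTR) and 3 carried a match to the guide (1.03%, against 2.83%). In the same class 55 carried ATCCACA (19.0%, against 14.5%) and 35 carried ATCTACA (12.1%, against 11.6%). Among the 361 genes of the mirror class, lower than mock with D1, 31 carried ATCAACA (8.59%) and 43 a match to the guide (11.9%). These shares were looked at after the classes were known, and without the 2 libraries 109 genes with ATCAACA were higher with D1 than with D3 and 44 lower. The genes with ATCCACA then had 112 higher and 79 lower, those with ATCTACA 86 and 78, and all 10792 genes with a 3′-UTR 665 and 618. The sites of 3 genes with ATCAACA that were lower than mock with D3, chosen after their values were seen, have the match in capitals. Ube2v2 and Mamld1 were not called with D1 against mock, and Aadac was higher than mock with D1 (0.50, adjusted p = 0.00417).
Aadac, chr3:59948291-59948297, plus strand: gccacctttaATCAACAAatagttttaa
Ube2v2, chr16:15372368-15372374, minus strand: tagtctaattATCAACAAacttccttta
Mamld1, chrX:70197643-70197649, plus strand: gaagcagcaaATCAACAccggccttcca
Ube2v2, a ubiquitin-conjugating enzyme variant, was at 6.59, 8.84, 9.71 and 5.65 CPM with D1 and at 4.21, 5.23, 3.36 and 4.92 with D3, against 7.30 to 10.4 in mock. Its D1 and D3 libraries did not overlap, and the log2 fold change was 0.80 directly and −1.02 for D3 against mock. The direct call of Ube2v2 was lost with a replicate block (0.79), from the second run alone (0.64) and without D1 replicate 3 (0.67). Onecut2, a liver transcription factor whose 3′-UTR also holds the letters, was lower than mock with both siRNAs (−0.50 with D1 and −1.21 with D3) and differed by 0.71 (adjusted p = 0.00314). Ehhadh, C8a, Oas1a and Calr, named below, also hold the letters and were higher with D1 than with D3. Rps25 and Spata6 hold them too and were lower with D1 (−0.99 and −1.16), and Spata6 also has a mer8 match. A match of letters is not a measured binding site.

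The passenger strand and a microRNA of the cells served as further lists. Matches to passenger positions 2 to 8 (TCACATT, 2004 genes) had 138 genes lower and 152 higher with D1 than with D3, and matches to the let-7 seed (CTACCTC, 1594 genes) had 114 lower and 111 higher. Their medians of 0.0055 and −0.0098 stood beside a median of −0.0040 over all genes with a 3′-UTR. Against mock, 11.9% of the let-7 genes were higher and 8.47% lower with D1, and 11.9% higher and 6.52% lower with D3. Of all genes with a 3′-UTR, 9.55% were higher and 10.6% lower with D1, and 8.39% and 8.40% with D3. The passenger genes had 182 higher and 203 lower than mock with D1, and 162 and 186 with D3. The passenger list depended on the 2 libraries: without them 91 genes were lower and 160 higher, with a median of 0.03, beside 0.03 for the genes with ATCAACA and −0.0036 for all genes with a 3′-UTR. The let-7 list then had 94 lower and 108 higher.

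Among the lists with at least 13 genes tested, cell cycle genes had the lowest medians. Of 24 tested, 22 were lower than mock with D1 and 19 with D3 (1 higher with D3), and 14 were lower with D1 than with D3 while none was higher. Of all genes, 10.2%, 8.14% and 7.21% were lower in these comparisons. The median log2 fold changes were −0.94, −0.45 and −0.52 in these comparisons, where the medians over all genes were 0.0084, 0.0031 and −0.0030. Top2a, a topoisomerase of dividing cells, was at 44.5, 45.0, 53.8 and 47.1 CPM with D1. The D3 libraries lay at 89.3, 68.8, 102.7 and 72.9 CPM, against 113.8 to 156.9 in mock, so the 3 groups did not overlap. Plk1 and Aurka, kinases of mitosis, had log2 fold changes of −1.05 and −0.63 directly, and Mki67, a proliferation marker, of −0.70. Ccnd1, cyclin D1 of the G1 phase, differed in another way: it lay within the mock range with D1 (−0.04) and was higher than mock with D3 (0.65), at 725.7, 726.1, 729.2 and 669.4 CPM against 399.6 to 550.6. Of the replication genes, Mcm3 was called (−0.32), while Mcm2, Mcm5, Mcm6 and Pcna were not (between −0.19 and −0.09), though these 4 were lower than mock with both siRNAs. After both libraries were left out, 9 of the 24 genes were lower with D1 than with D3 and none higher. Whether fewer cells were dividing or dividing cells held less of these mRNAs cannot be told apart in bulk samples.

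In the list of the integrated stress and unfolded protein responses, 7 of 22 genes were higher with D1 than with D3 and none lower (median 0.16), where 6.53% of all genes were higher, and the other 15 were not called. Trib3 and Chac1, targets of the stress factor ATF4, were higher by 0.59 and 0.78, and the ER chaperone Calr by 0.37. Calr was at 1887, 2206, 2093 and 2282 CPM with D1 and at 1549, 1667, 1790 and 1558 with D3, where mock spanned 1593 to 1812. It was higher than mock with D1 (0.32) and not called with D3 (−0.04). Psat1, an enzyme of serine synthesis, was lower than mock with both siRNAs (−0.29 and −0.66), and 8 genes of the list were called lower than mock and 1 higher with D3 (8.14% and 7.96% of all genes), and 3 lower and 6 higher with D1 (10.2% and 9.08%). With the 2 libraries left out, 6 were higher with D1 than with D3. Of 21 genes of NRF2 and oxidative stress 5 were higher with D1 and 2 lower. Gclc, the catalytic subunit of glutathione synthesis, was at 777.6 to 1015 CPM with D1 and at 503.7 to 611.6 with D3 (0.67), and Gpx1, a glutathione peroxidase, was lower with D1 (−0.46). With these libraries left out, 2 genes of this list were higher and 2 lower.

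Of 18 genes of the asialoglycoprotein receptor and endocytosis, 7 were higher with D1 than with D3 and 2 were lower (median 0.16), where 6.53% of all genes were higher and 7.21% lower, and without the 2 libraries 7 and 1. Vps35, a subunit of the retromer, was at 469.1, 465.3, 473.6 and 479.9 CPM with D1 and at 339.0, 320.5, 415.8 and 343.5 with D3, where mock spanned 448.7 to 491.5. The receptor subunits Asgr1 and Asgr2 were higher with D1 by 0.69 and 0.65, both at low levels in these cells (mean 5.51 and 12.99 CPM). Ctsb, cathepsin B, which has a mer7m8 match, was lower with D1 (−0.44). In glycolysis and gluconeogenesis, 5 of 15 genes were higher with D1 (6.53% of all genes) and none lower, by 0.20 to 0.36, among them Pfkl and Gpi1. With the 2 libraries left out, 2 were higher, and Gpi1 was not called (adjusted p = 0.0931).

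Of 23 plasma protein genes, 15 were higher than mock with D1 and 15 with D3 and none was called lower, where 9.08% and 7.96% of all genes were higher. Between D1 and D3, 3 of them were called, where 13.7% of all genes were. Alb, albumin, was higher than mock by 0.20 and 0.18 (difference 0.015, adjusted p = 0.928). Ahsg, fetuin-A, was higher with both and further with D3, at 1632, 1704, 1743 and 1598 CPM against 989.5, 1164, 1228 and 1340 with D1 and 682.7 to 998.3 in mock. Of 20 coagulation genes, 7 were higher than mock with each siRNA and none was called lower, but without the 2 libraries 4 were higher and 1 lower with D1. Fgg, the fibrinogen gamma chain, rose by 0.88 and 0.45 and differed by 0.44, and Serpind1, heparin cofactor II, was lower with D1 than with D3 (−0.73). Of 25 genes of complement and the acute phase, 13 were higher than mock with D1, and 7 were higher and 2 lower with D3. C8a, a chain of complement C8, was at 29.1, 36.0, 30.5 and 38.0 CPM with D1, above the mock range of 18.6 to 28.3. With D3 it was at 13.6, 16.6, 19.4 and 12.5 CPM, and the direct difference was 1.11 (SE 0.14). After both libraries were left out, 9 plasma protein genes were higher than mock with D1 and 11 with D3, and 8 complement genes with D1 and 4 with D3.

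Of 13 genes of NF-kB and chemokines, 3 were higher with D1 and 1 lower, with and without the 2 libraries, where 6.53% of all genes were higher and 7.21% lower. Ccl2, a monocyte chemokine, was at 381.3, 409.5, 376.3 and 439.6 CPM with D1, against 231.0, 212.8, 264.7 and 204.7 with D3 and 220.1 to 250.4 in mock, and differed by 0.81 (adjusted p = 6.94e-11). Icam1, an adhesion molecule, differed by 0.75 and Tnfaip3, an inhibitor of NF-kB, by 0.36, while Vcam1, another adhesion molecule, differed by −0.95. Of 27 interferon-response genes 1 was higher and 1 lower (2 and 1 without the 2 libraries), and none was called at 50 nM: Oas1a, a sensor of double-stranded RNA, was higher with D1 by 0.80 and not called at 50 nM (0.49, adjusted p = 0.445), and Cxcl10 was lower with D1 (−1.34), though its 4 and 4 libraries overlapped and it was not called without the 2 libraries (−0.64) or at 50 nM (−1.82, adjusted p = 0.13).

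**Figure D4:**
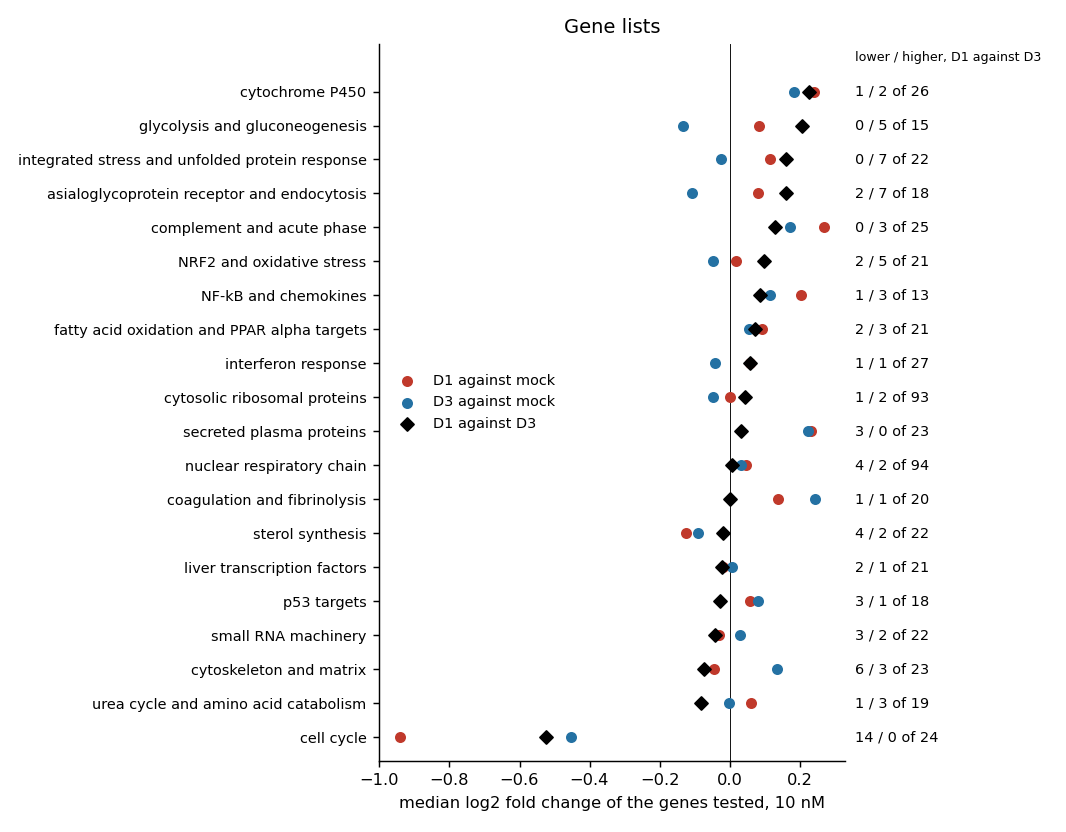
Median log2 fold change (x axis) of the tested genes of 20 lists with at least 13 genes tested, for D1 against mock, D3 against mock and D1 against D3 at 10 nM. The numbers at the right give the genes called lower and higher in D1 against D3 and the genes tested. Cell cycle genes have the lowest medians, −0.94, −0.45 and −0.52.

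Among the proteins that handle small RNAs, 3 of 22 genes were lower with D1 and 2 higher, with and without the 2 libraries, where 7.21% and 6.53% of all genes were, and from so few genes nothing is read. Drosha, the nuclease that crops primary microRNAs, was at 44.1, 35.2, 38.7 and 34.4 CPM with D1. The D3 libraries lay at 67.0, 58.0, 57.4 and 66.4 CPM, against 62.3 to 81.1 in mock, a difference of −0.71 (SE 0.095, adjusted p = 1.03e-06). Its partner Dgcr8 moved the other way, at 44.3, 52.7, 43.3 and 40.8 CPM with D1 and at 28.01, 26.6, 25.7 and 30.0 with D3 (0.72). Ago2, the Argonaute that cleaves targets, was lower with D1 (−0.30). Dcp2, a decapping enzyme, was lower (−0.52), and Tnrc6b, a partner of Argonautes, was higher by 0.26.

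The other lists are given by their counts, to be read against the 7.21% of all genes that were lower with D1 than with D3 and the 6.53% that were higher. Sterol synthesis had 4 lower and 2 higher of 22, led by Msmo1, and its regulator Srebf2 was lower with D1 (−0.37). With the 2 libraries left out, the counts were 2 and 1. Cytochrome P450 genes had 1 lower and 2 higher of 26, with Cyp2c29 higher by 0.60 and Cyp2c70 lower (−0.41), and without the 2 libraries 1 lower and 4 higher. Members of the Cyp2c family resemble each other, which makes their counts uncertain. Fatty acid oxidation had 2 lower (Acot2 −0.91 among them) and 3 higher of 21, with Ehhadh, a peroxisomal enzyme, higher by 0.81. Urea cycle and amino acid genes had 1 lower (Fah, −0.48) and 3 higher of 19. The 7 tested genes of glyoxylate and peroxisomal metabolism had 2 higher, Hao1 and Ehhadh. Of 23 genes of cytoskeleton and matrix, 6 were lower, among them Actg1 and Anxa2, an annexin (−0.35), and 3 were higher. Of 18 p53 targets 3 were lower, Ei24, Phlda3 and Btg2, and 1 was higher, Pmaip1. Liver transcription factors had 2 lower, with Hnf4a at −0.37, and 1 higher of 21. Of 93 cytosolic ribosomal protein genes 1 was lower, Rps25 (−0.99), and 2 were higher, Rps6 by 0.20 (2 lower and 1 higher without the 2 libraries). The D1 and D3 libraries of Rps6 overlapped. Its call was lost with a replicate block, with D1 and D3 alone in the fit, and when D1 or D3 replicate 1, 2 or 4 was left out. Of 94 genes of the nuclear respiratory chain 4 were lower, with Ndufv1 at −1.12 and Atp5pf at −0.50, and 2 higher (none without the 2 libraries). Rps25 was at 126.1 to 144.1 CPM with D1 against 253.6 to 280.1 with D3 and 227.8 to 287.1 in mock, apart from the rest of its list, whose median was 0.04. Gapdh, a common reference gene, was at 630.4 to 778.2 CPM with D1 and 674.3 to 704.8 with D3 (difference 0.01, 95% interval −0.114 to 0.137).

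Hepatocyte markers were present and most markers of other liver cells were absent or low. All 12 hepatocyte markers were tested, and they summed to 20160 to 25490 CPM with D1, 23860 to 26600 with D3 and 19030 to 22940 in mock, with Alb the most abundant (mean 14290 CPM). Of these markers 2 were lower with D1 than with D3 (Ahsg and Hnf4a) and 2 higher (Tat and Asgr1), where 7.21% and 6.53% of all genes were. Of 12 Kupffer cell markers 1 was tested, Cd68 (21.8 CPM), and 7 had no count in any of the 16 libraries, Adgre1, Marco and Timd4 among them. Their sum was 14.3 to 34.8 CPM with D1 and 15.6 to 26.9 with D3. Of 12 endothelial markers 3 were tested, led by Flt4 (93.9 CPM, higher with D1 by 0.51), while Kdr, Clec4g and Cdh5 had no count. Their sum was 106.0 to 139.4 CPM with D1 and 82.3 to 98.4 with D3. Of 12 stellate cell markers 1 was tested, Reln (18.5 CPM, higher with D1 by 0.75), and their sum was 21.1 to 25.5 CPM with D1 and 11.2 to 17.4 with D3. Of 12 lymphocyte markers 8 had no count, and Cd3e (2.04 CPM) was the most abundant. Of 12 cholangiocyte markers 7 were tested, 4 higher than mock with each siRNA, where 9.08% of all genes were higher with D1 and 7.96% with D3. Krt19, a keratin of bile ducts, was higher with D1 than with D3 by 0.46 and Spp1, osteopontin, lower (−1.20), and their sum was 289.6 to 317.3 CPM with D1, 253.0 to 301.7 with D3 and 215.6 to 242.2 in mock. The part of these markers in the other results was not tested.

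At 50 nM, in libraries that the comparison at 10 nM did not use, D1 and D3 differed at 2637 of 11078 genes (23.8%, with 11.3% lower and 12.5% higher). Of the 1574 genes called at 10 nM, 1556 were tested at 50 nM, 1542 of these (99.1%) had the same sign, and 1257 (80.8%) were called with the same sign. None was called with the opposite sign. Their median size was 0.421 at 10 nM and 0.42 at 50 nM. A test of the difference between the doses called 0 of 11463 genes (0%), with 375 at an unadjusted p under 0.05 (3.27%) and a smallest adjusted p of 0.466 from edgeR, the tool used for it. Golm2, Actg1, Maea, Cdh17, Msmo1, Aadac and Rnf115 were all called again, with log2 fold changes of −2.30, −1.61, −1.44, −1.34, 1.85, 1.92 and −0.93. Gvin4, Chst15, Spata6 and Nat8f2, an N-acetyltransferase family gene with ATCAACA, were not called at 50 nM (1.25, −0.63, −0.75 and 0.41). Of the 10 shared genes named above, which were not called between D1 and D3 at 10 nM, 5 were called at 50 nM: Cenpe (−0.78), Esco2 (−0.99), Col4a5 (−0.43) and Efemp1 (−0.61) lower and Trdc (0.36) higher with D1. In the cell cycle list 14 of 24 genes were again lower with D1 and none higher, and in the stress list 16 of 22 were higher. Sterol synthesis had 10 higher and 1 lower of 22 at 50 nM, against 2 and 4 at 10 nM. For mer8 genes 15 were lower with D1 and 4 higher, with a median of −0.23, and for genes with ATCAACA 193 were higher (17.9%, against 12.5% of all genes) and 96 lower (8.92%, against 11.3%). The lists beside it had more higher than lower calls at 50 nM too, with 224 higher and 172 lower for ATCCACA (14.8% higher), 175 and 139 for ATCTACA (14.4%) and 293 and 203 for the passenger letters (15.0%). Of all genes with a 3′-UTR, 12.8% were higher and 11.7% lower.

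**Figure D5:**
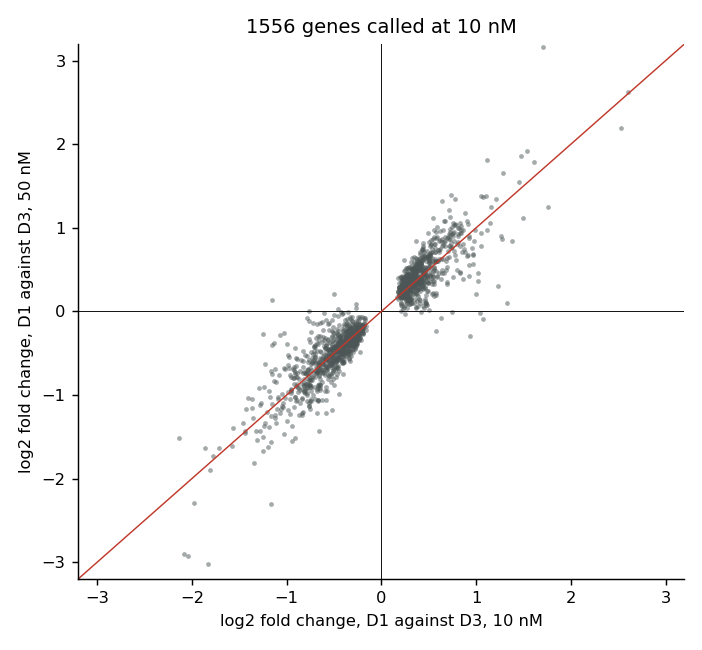
Log2 fold change of D1 against D3 at 10 nM (x axis) and at 50 nM (y axis, other libraries) for the 1556 genes called at 10 nM and tested at both doses. Each point is 1 gene, and the red line marks equal values. Of the genes shown, 1542 have the same sign at both doses.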

How the data were processed

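Per the labels, libraries of bead-isolated RNA were made with a stranded total RNA kit. The authors filtered reads, aligned them with STAR to GRCm39 and deposited raw counts of uniquely aligned reads per gene (featureCounts 2.0.2, per the submitters' processing notes), as 2 sequencing runs per library. The gene annotation and strand setting are not given in the sources used here. Their tables of fold changes and p-values for each siRNA against mock were not used.

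Counts of both runs were summed, as they agreed within sampling error (chi-square divided by its degrees of freedom was at most 1.05, where replicates had 1.67 to 8.86). The 92 ERCC spike-ins were left out. With 3409963 to 5464931 counts per library, precision was low for genes at a few CPM. D1, D3 and mock were fitted together in edgeR 4.0.16 (R 4.3.3, TMM, filterByExpr, robust quasi-likelihood test), with Benjamini-Hochberg adjustment over all genes tested and a threshold of 0.05. The SE is the log2 fold change divided by the root of F. The 50 nM libraries were fitted alone, and the difference between doses in a fit of the 4 siRNA groups. On simulated counts for D1 against D3, 200 of 11346 genes were changed, 33 or 34 at each size. At −2, −1 and −0.5, 97.1%, 85.3% and 54.5% of them were recovered. At 2, 1 and 0.5, 100%, 75.8% and 57.6% were, and 5 unchanged genes were called. Far more genes, 1574, were called in the data, so these shares need not hold there.

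Seed matches and coordinates are from the longest 3′-UTR of protein-coding genes in GENCODE (GRCm39), which held 54749 of the 55416 genes listed. Genes named are Hao1, Gapdh, the 8 largest decreases and increases between D1 and D3 (called, no overlap, mean of at least 5 CPM), the 5 largest shared changes each way, the 6 largest mer8 decreases and 2 members per list by p. One gene that this rule names is not reported here. Other list members, and genes with ATCAACA, were named after their values were seen. Members and lists were chosen with earlier results of these data known. Alternatives were RLE size factors, no filter on low counts, DESeq2 1.42.0 with betaPrior, other sets of libraries, each run alone, a replicate block and libraries left out. Matches to another liver microRNA are not analysed here.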

Additional observations from a re-analysis of the deposited data

Results flagged for a closer look

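In groups of 4 to 8 libraries, 1 library stood far from the others of its group in 13 of 246 groups tested, where chance gives about 1 in 20. In log2 CPM, these were Clstn1 in mock replicate 5 (1.647), Selenbp1 in mock replicate 7 (4.867), Srebf2 in mock replicate 4 (7.018), Btg2 in mock replicate 3 (6.385), Flt4 in mock replicate 3 (6.109) and Krt19 in mock replicate 8 (7.061). With D1 they were Col4a5 in replicate 3 (5.207), Gpx1 in replicate 4 (8.002), Spp1 in replicate 1 (3.699) and Rps6 in replicate 3 (7.893). With D3 they were Ccnd1 in replicate 4 (9.388) and Cd68 in replicate 1 (3.964). The share of counts in the 10 most abundant genes was 10.38% in D3 replicate 2, above the other D3 libraries.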

How the results depend on the processing

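The counts over all genes (D1 against D3, each against mock, shared, and 50 nM) stayed within 1.5 times their values in the alternatives run, and no named result reversed. Counts within gene lists moved more without D1 replicate 4 and D3 replicate 3: cell cycle genes lower with D1 than with D3 went from 14 to 9, glycolysis genes higher from 5 to 2, NRF2 genes higher from 5 to 2, sterol genes lower from 4 to 2, and plasma protein genes higher than mock with D1 from 15 to 9, while cytochrome P450 genes higher with D1 than with D3 went from 2 to 4, and interferon genes, p53 targets and liver transcription factors higher from 1 to 2 each. D1 against D3 at 10 nM gave 1107 to 1786 calls, including 1563 with RLE size factors, 1512 with DESeq2 and 1257 with D1 and D3 alone in the fit. With each library left out in turn the count was 1260 to 1502 for D1 against D3, 1775 to 2292 for D1 against mock, 1308 to 2009 for D3 against mock, 548 to 717 for genes shared with the same sign and 2043 to 2625 at 50 nM. Hao1 was not called with DESeq2 (0.369) or from the second run alone (1.025), and ranged from 1.175 to 1.556 with each library left out. It has no value with D1 and D3 alone in the fit or with a replicate block. The mer8 median moved to −0.10 with any annotated 3′-UTR and to −0.14 with DESeq2. The causes were not tested. Replicate numbers were treated as names only, since same-numbered D1 and D3 libraries at 10 nM did not deviate together (r = 0.0828, 0.146, −0.264 and −0.151). The highest of all 16 pairs was D1 replicate 4 with D3 replicate 3 (0.414). The mock and 50 nM libraries were not checked in this way. With a replicate block, 1123 genes were called between D1 and D3, 1480 and 1675 against mock, 557 shared and 3064 at 50 nM. Of 1288 values of named genes under alternatives, 59 lost and 2 gained a call, mostly of low genes or small differences (among them Nat8f2, Chst15, Rps6, Cxcl10, Ube2v2 and Ccnb2).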
